A study of Homo sapiens with 6 samples.

Results

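The genes described here are the protein-coding genes whose counted transcript covers more than 400 kb of genome in K562 cells, an established human chronic myelogenous leukemia line. They were chosen by length and gene class, with some gene names left out, and not by a measured level. Transcript identifiers were matched to a GENCODE annotation, transcripts of protein-coding genes with a span over 400000 bp were kept (467), and 12 were left out by gene name. This left 455 transcripts of 452 genes, 2.40% of the 18964 protein-coding transcripts and part of 37255 matched transcripts with a span over 1000 bp. PDE11A, RARB and NKAIN3 each have 2 counted transcripts among them. Protein-coding genes with a span of 20 to 60 kb (5301) served as the background. Of the long transcripts, 18 are annotated as targets of nonsense-mediated decay and 9 have no defined coding sequence.

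Both assays were run on untreated cells that shared 1 standard culture medium. PRO-seq, which sequences nascent RNA from engaged polymerases, has 2 libraries with 6993816 and 7245632 counts on transcripts. RNA-seq of total RNA after rRNA depletion, which measures steady-state RNA, has 4 libraries with 5732780 to 9002746 counts. Per the study's methods the cells for both assays grew in 1 flask, so the p-values below measure only the technical spread between these libraries and cover no difference between cultures. RNA-seq replicates 1 and 3, and 2 and 4, differed little more than counting noise (chi-square per degree of freedom of 1.11 and 1.12), against 1.74 to 2.11 for the other RNA-seq pairs. Whether each close pair is 1 library sequenced again is not stated, and if so the RNA-seq values below come from 2 libraries and not 4. With each close pair summed, the counts of long transcripts called above and below were 45 and 22 past the TPM thresholds and 92 and 73 with at least 10 counts, as in the tests of all 4 described below. Erythroid markers were present, with GATA1 at 155 TPM, KLF1 at 186 TPM and TFRC at 632 TPM in RNA-seq. Of the neuronal markers, SNAP25, MAP2, RBFOX3, GAP43 and TUBB3 were at most 0.393 TPM, whereas SYP was at 7.96 TPM. CD3E of T cells was at 0.324 TPM.

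Very long human genes owe their size to introns, and their exons make up an ordinary or somewhat large mRNA. A polymerase must stay engaged over the whole span to make 1 full transcript, so a long gene collects nascent reads over a wide window and exonic reads over a narrow one. Many such genes act in neurons, as adhesion molecules, channels and synaptic scaffolds, and several lie in common fragile sites, regions that break when replication is slowed. Others, among them SND1, SMYD3 and EXOC4, serve functions found in most cells.

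The promoters of the 4 long genes with the highest PRO-seq level and of the 2 with the lowest are shown here, because these genes span the range of nascent transcription in these cells. They were taken from genes with PRO-seq counts and 1 counted transcript that starts inside the RefSeq promoter window, within the chromosomes searched. The runs are the 120 bases before the RefSeq start, 5′ to 3′ on the strand of the gene, with GRCh38.p14 coordinates. Capitals mark CG dinucleotides.
FAF1, chr1:50960268-50960387, minus strand: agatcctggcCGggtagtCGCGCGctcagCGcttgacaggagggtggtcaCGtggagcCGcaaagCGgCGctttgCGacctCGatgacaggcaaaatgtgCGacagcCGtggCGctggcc
ARL15, chr5:54310574-54310693, minus strand: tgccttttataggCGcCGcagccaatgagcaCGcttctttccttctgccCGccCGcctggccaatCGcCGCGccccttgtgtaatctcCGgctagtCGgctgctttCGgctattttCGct
SND1, chr7:127652074-127652193, plus strand: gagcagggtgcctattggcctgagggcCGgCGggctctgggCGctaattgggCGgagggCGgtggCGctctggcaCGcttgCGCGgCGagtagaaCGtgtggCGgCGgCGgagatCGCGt
SMYD3, chr1:246507280-246507399, minus strand: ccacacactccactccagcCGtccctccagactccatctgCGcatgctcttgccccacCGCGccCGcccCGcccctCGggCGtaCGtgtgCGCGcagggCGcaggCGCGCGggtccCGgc
HS3ST4, chr16:25691839-25691958, plus strand: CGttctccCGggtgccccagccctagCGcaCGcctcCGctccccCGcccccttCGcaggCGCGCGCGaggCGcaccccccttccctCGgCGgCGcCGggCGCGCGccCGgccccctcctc
KCND2, chr7:120273055-120273174, plus strand: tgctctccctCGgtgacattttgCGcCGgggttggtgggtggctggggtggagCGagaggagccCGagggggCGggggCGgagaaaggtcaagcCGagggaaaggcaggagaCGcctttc
All 6 runs are rich in CG, with 14, 12, 16, 16, 20 and 9 in the order shown. HS3ST4, a heparan sulfate sulfotransferase gene, had a PRO-seq level of 0.056 TPM and no RNA-seq count, and its run holds the most CG dinucleotides of the 6. Other counted transcripts on its strand overlap 57.1% of its span. KCND2, a potassium channel gene, had 0.0925 TPM in PRO-seq, while RNA-seq gave 0.0252 TPM.

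A RefSeq promoter of 300 bases was found by symbol for 362 of the 452 long genes and for 4099 of the 5289 background genes. In 60.7% of the 364 long transcripts checked, the first 30 bases of the counted transcript lay in that window, against 73.6% in the background. The median GC content was 64.7% in long genes and 63.7% in the background. The ratio of observed to expected CG was over 0.6 in 66.0% of long promoters, 72.1% of background promoters and 48.9% of all 27305 promoters. Among genes with at most 1 TPM in PRO-seq, that share was 61.5% of 234 long promoters and 44.8% of 998 background promoters. Among those above 10 TPM, it was 77.05% of 61 and 88.2% of 2417.

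Promoter motifs were counted as letter matches only. GGGCGG or its complement CCGCCC occurred in 54.4% of long promoters, 63.7% of background promoters and 44.6% of all promoters. CCAAT or ATTGG occurred in 31.2%, 36.1% and 35.7%. TATAAA on the strand of the gene, between 45 and 11 bases before the start, occurred in 5 long promoters (1.38%), against 2.27% of the background and 2.68% of all. None of the 61 long promoters above 10 TPM in PRO-seq held TATAAA in that window, against 0.827% of the background promoters above 10 TPM.

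The counted long transcripts have a median span of 568335 bp and reach 2471658 bp (RBFOX1, a splicing regulator of neurons and muscle), and 64 exceed 1 Mb. Their median exon number is 17 (9 in the background) and their median exon length is 5726 bases (2946). Introns make up a median of 99.1% of the span (91.3%). The first intron has a median of 80469 bp (6017) and the longest intron 202295 bp (12813). Median exon GC was 45.7% in long transcripts and 48.5% in the background. For 64 of the 455, the Ensembl canonical transcript of the gene spans 400 kb or less, so that the counted transcript is a long form of a shorter gene. Counted transcripts of other genes on the same strand covered at least 10% of the span in 37 long transcripts (8.13%), against 13.5% of the background.

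Nearly all long genes were detected in PRO-seq, and most were poorly counted in RNA-seq. At least 10 summed PRO-seq counts were found in 449 of 455 (98.7%), against 81.2% of the background. At least 10 summed RNA-seq counts were found in 205 (45.1%), against 68.4% of the background. Long genes held 4.88% and 4.87% of the counts of the PRO-seq libraries and 0.632% to 0.643% of those of the RNA-seq libraries. The background held 24.7% and 24.8% of PRO-seq counts and 31.2% to 31.4% of RNA-seq counts. The shares of the 4 RNA-seq libraries did not overlap those of the PRO-seq libraries.

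Per length the levels were low. Levels are in TPM, counts per length scaled to a fixed sum per library, over exon length for RNA-seq and over the span minus 1000 bp for PRO-seq. The median PRO-seq level was 0.520 and 0.643 TPM in the 2 libraries and 0.596 TPM from summed counts, against 16.8 TPM in the background. The median RNA-seq level ranged from 0.0822 to 0.109 TPM over the 4 libraries and was 0.0803 TPM from summed counts, against 7.44 TPM. In each library the median of the long genes was below that of the background. When only 500 bp were taken off the span, the median PRO-seq level was 0.721 TPM.

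**Figure D1:**
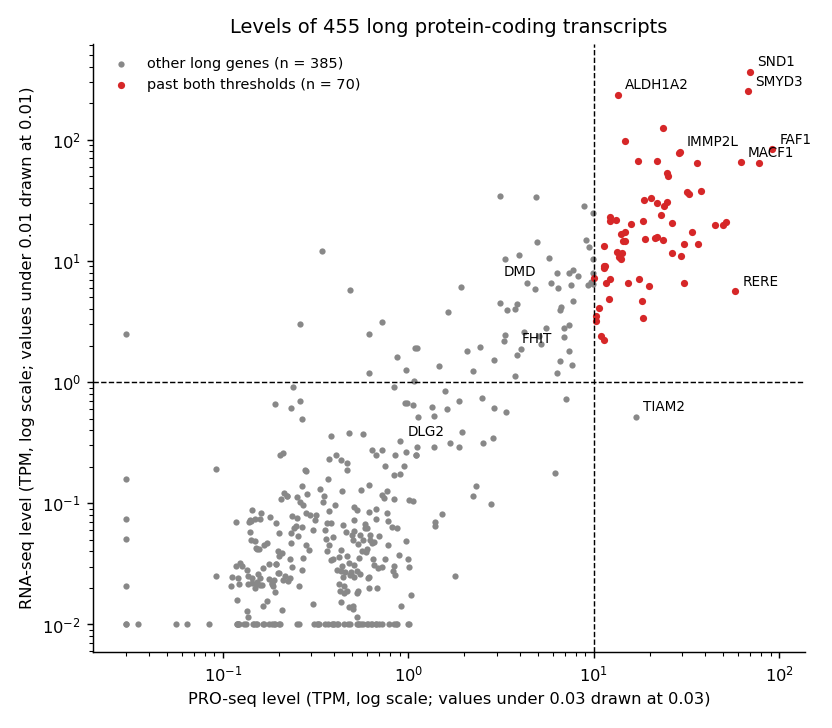
PRO-seq level (x axis, TPM, log scale) and RNA-seq level (y axis, TPM, log scale) of the 455 long transcripts from summed counts. Dashed lines mark 10 TPM (PRO-seq) and 1 TPM (RNA-seq). Red points are the 70 transcripts past both lines, and TIAM2 is the single transcript above 10 TPM in PRO-seq and at most 1 TPM in RNA-seq.

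The scatter of the levels in both assays shows a pair of groups, a large one with under 1 TPM in both assays and a smaller one along a diagonal at higher levels. Above 10 TPM in PRO-seq were 71 long transcripts (15.6%), against 55.6% of the background. Of these 71, 70 also exceeded 1 TPM in RNA-seq (98.6%), against 96.1% of the background. A level above 1 TPM in RNA-seq was found in 136 long transcripts, of which 66 (48.5%) were at or below 10 TPM in PRO-seq. In the background, 446 of 3280 (13.6%) were.

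In PRO-seq, the share with at least 10 counts was higher and the level lower in long genes. In RNA-seq both were lower. From the bin of 20 to 60 kb to the bin over 1000 kb, the share of protein-coding transcripts with at least 10 PRO-seq counts was higher in each longer bin, from 81.2% to 100%. The share with at least 10 RNA-seq counts was 50% at 400 to 600 kb, 41.4% at 600 to 1000 kb and 32.8% above 1000 kb. The share above 10 TPM in PRO-seq was 20.9%, 12% and 1.56% in the same 3 bins. The median PRO-seq level was 0.720, 0.483 and 0.519 TPM in these bins, and 1.58 TPM at 200 to 400 kb. At the same level a longer gene collects more PRO-seq counts, so a cut of 10 counts is met at a lower level. The median PRO-seq count was 195 at 0.596 TPM in long genes and 292 at 16.8 TPM in the background. Why the level differed between bins was not tested.

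**Figure D2:**
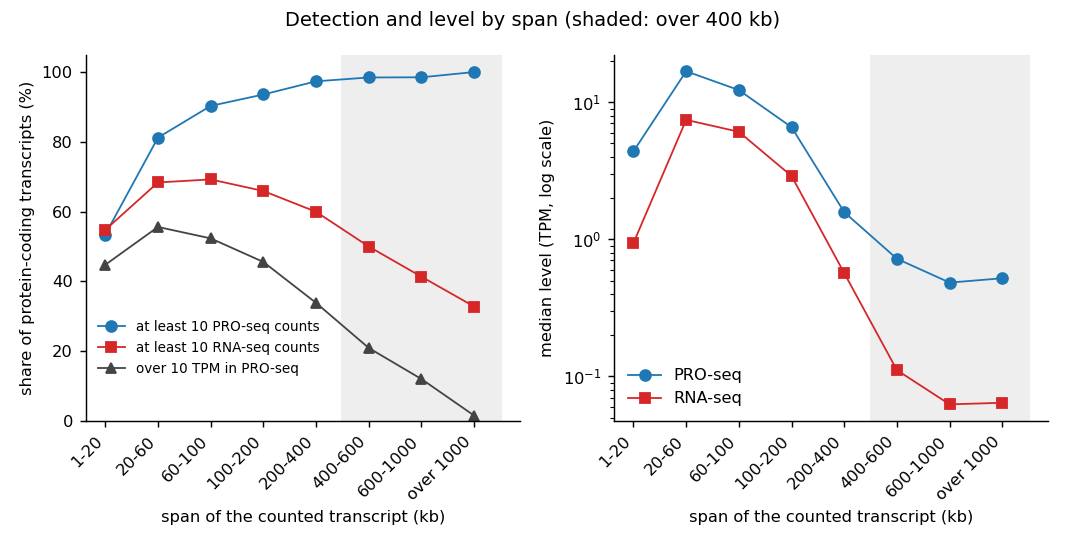
Left, share of protein-coding transcripts (%) with at least 10 summed counts in PRO-seq or RNA-seq and above 10 TPM in PRO-seq, by span of the counted transcript (kb). Right, median level (TPM, log scale) in both assays; the shaded bins over 400 kb hold 258, 133 and 64 transcripts and have the lowest medians of all bins.

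The highest nascent level belonged to FAF1, a ubiquitin-binding cofactor of the segregase VCP (ENSG00000185104, GRCh37 chr1:50902700-51425939, 19 exons). FAF1 had 93.4 and 90.4 TPM in the PRO-seq libraries, and 83.1, 82.5, 86.0 and 81.2 TPM in RNA-seq replicates 1 to 4. Next came ARL15, a small ARF-like GTPase (GRCh37 chr5:53179775-53606412), with 77.4 and 78.5 TPM in PRO-seq, while RNA-seq gave 60.6 to 68.3 TPM. The libraries of each assay differed little in both genes. On the scale of relative half-life defined below, both were above the median mRNA in the edgeR test, FAF1 at 0.49 ± 0.035 (SE, adjusted p = 5.9e-14) and ARL15 at 0.345 ± 0.042 (adjusted p = 1.0e-08). MACF1, a giant linker of actin and microtubules with 101 exons and 24319 exonic bases, had 62.5 and 61.7 TPM in PRO-seq against 63.6 to 67.5 TPM in RNA-seq, and its canonical transcript covers 70.1% of the counted span. GSE1, also among the 8 highest, had 49.6 and 53.7 TPM in PRO-seq, while RNA-seq gave 18.8 to 22.6 TPM, from a counted form of 3 exons whose canonical transcript covers 13.5% of the span.

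The ratio of RNA-seq to PRO-seq level was read as a relative half-life, on the log2 scale and with the median protein-coding transcript at 0. It was tested for all 10053 transcripts past 10 TPM (PRO-seq) and 1 TPM (RNA-seq) with edgeR, and again for all 12946 transcripts with at least 10 counts in each assay. A transcript was called above or below the median mRNA at a Benjamini-Hochberg adjusted p under 0.05. The second set keeps long genes that collect many counts at a low level per length. The centre of the scale differs between the sets, and a transcript fitted in both is higher by a median of 0.11 in the second. TPM is scaled separately in each assay, so equal TPM in both does not mean a value of 0. Per the paper, the PRO-seq signal depends on elongation rate, the speed of the polymerase along the gene, as well as on transcription rate. Elongation rate was not measured here, and its part in the ratio was not tested.

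Past the TPM thresholds, 45 of the 70 long transcripts were above the median mRNA (64.3%) and 22 were below (31.4%). DESeq2 called 37 above (52.9%) and 21 below. Over all transcripts tested, 40.0% were above and 50.4% below, and over the background genes 49.3% and 42.2%. With at least 10 counts, 92 of 204 long transcripts were above (45.1%) and 73 below (35.8%), whereas all transcripts tested gave 38.5% above and 48.5% below, and the background 47.7% and 40.5%. DESeq2 called 81 above (39.7%) and 43 below (21.1%) of these 204. The shares over all transcripts and over the background are edgeR calls, and the DESeq2 counts have no such share beside them. Those totals over all transcripts include noncoding RNAs. Against the background genes, the edgeR share above was thus higher past the thresholds and slightly lower with at least 10 counts.

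The medians were compared in the same sets. Past the thresholds the median log2 half-life was 0.35 in long genes and 0.13 in the background, a difference of 0.224. Over the 8 pairings of 1 RNA-seq with 1 PRO-seq library this difference ranged from 0.170 to 0.383 and was above 0 in 8 of 8. Each pairing was taken over the transcripts with a count in both of its libraries. The pairings reuse the same libraries, so they are not independent, and they do not cover the spread between genes. With at least 10 counts the medians were 0.085 and 0.14, the difference was -0.055, and it ranged from -0.059 to 0.142 with 5 of 8 above 0. With at least 1 count in each assay and 402 long transcripts, the difference was -0.835. The sign of the difference was not the same in all sets or pairings of libraries, and why was not tested. Without RNA-seq replicate 1, 2, 3 or 4 it was 0.097, 0.129, 0.1 and 0.064 in the set of at least 10 counts, which then held 182 to 193 long transcripts.

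Within the 70, the log2 half-life ran from -2.73 (RERE) to 4.76 (ALDH1A2), with an SD of 1.33, against a median SD between replicates of 0.0957 for a single gene. Long genes differed among themselves more than the libraries did, and so did the background genes (SD of 1.54 against 0.118). Among the highest long genes was SND1, a Tudor-domain nuclease and RNA-binding protein (ENSG00000197157, GRCh37 chr7:127292248-127732645, 24 exons). SND1 had 70.6 and 69.1 TPM in PRO-seq, while RNA-seq gave 379, 346, 369 and 364 TPM. All 4 RNA-seq values lay above both PRO-seq values, and the log2 half-life was 3.02 ± 0.040 (SE, adjusted p = 2.4e-32).

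SMYD3, a lysine methyltransferase gene (ENSG00000185420, GRCh37 chr1:245912649-246670581), has 1565 exonic bases in 757933 bp and an intron of 397263 bp. Its levels were 67.8 and 68.1 TPM in PRO-seq against 251, 249, 245 and 256 TPM in RNA-seq, a log2 half-life of 2.52 ± 0.037 (adjusted p = 2.4e-31). RSRC1, a splicing-related protein gene of 438668 bp, had 24.1 and 23.4 TPM in PRO-seq, while RNA-seq gave 120 to 128 TPM, a log2 half-life of 3.04 ± 0.052 (adjusted p = 1.5e-29). In all 3 genes the canonical transcript covers nearly the whole counted span.

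The 3 other genes among the 6 highest carry a limit of the counted transcript. ALDH1A2, which encodes a retinoic acid synthesising enzyme, was counted on a form of 4 exons and 664 exonic bases, and its canonical transcript covers 24.4% of that span. It had 13.4 and 13.5 TPM in PRO-seq against 219 to 243 TPM in RNA-seq, a log2 half-life of 4.76 ± 0.058 (adjusted p = 3.9e-33). RDX encodes radixin, which ties actin to the membrane, and its canonical transcript covers 15.5% of the span. RDX had 17.5 and 17.3 TPM in PRO-seq, 61.7 to 68.5 TPM in RNA-seq and a log2 half-life of 2.56 ± 0.053. ENSG00000255872, which has no symbol, is overlapped by other counted transcripts over 81.4% of its span, 42.1% on its own strand. Its log2 half-life was 3.38 ± 0.052. The part of these features in the values was not tested.

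**Figure D3:**
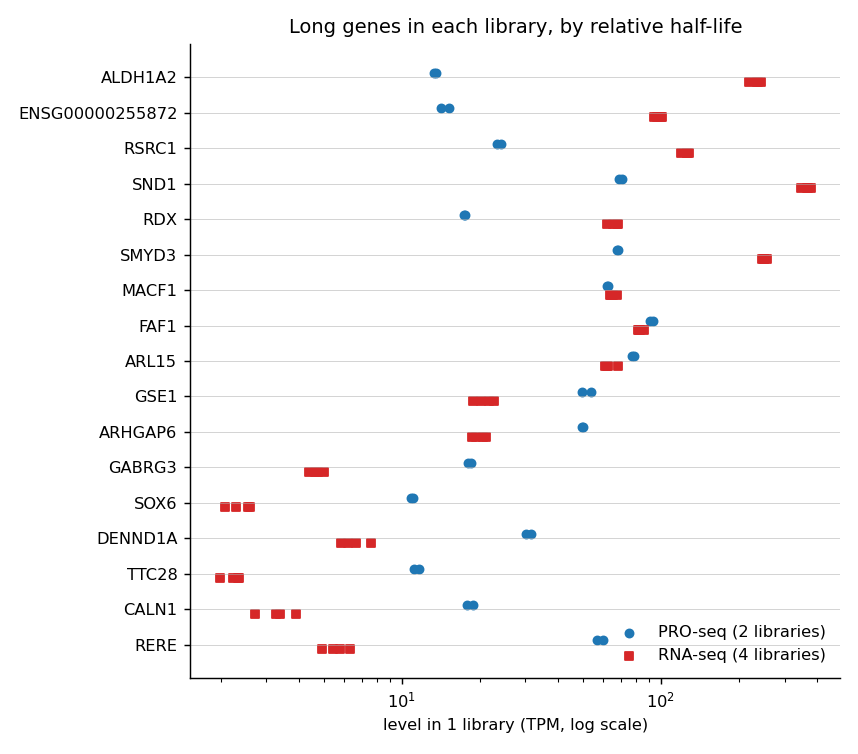
Level in each library (TPM, log scale) of 17 long genes, ordered by log2 half-life from RERE at the bottom to ALDH1A2 at the top. Circles are the 2 PRO-seq libraries and squares the 4 RNA-seq libraries. The assays change order along the axis, but each is scaled separately, so the crossing does not mark the median mRNA. In RERE the squares lie under 10 TPM while the circles lie above 50 TPM.

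RERE, a transcriptional corepressor gene (ENSG00000142599, GRCh37 chr1:8412464-8877699, 23 exons), was the lowest. Its nascent level was among the highest, with 56.6 and 59.5 TPM in PRO-seq, whereas RNA-seq gave 4.94, 6.30, 5.45 and 5.79 TPM. The log2 half-life was -2.73 ± 0.057 (adjusted p = 2.2e-27). RERE and SND1 are close in span and in nascent level, and their steady-state levels were 5.62 ± 0.570 and 365 ± 13.7 TPM (SD, n = 4). The plot of levels by library shows the gap in each library.

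The next lowest were CALN1, TTC28, DENND1A, SOX6 and GABRG3. CALN1, a neuronal calcium-binding protein gene of 667571 bp, had 17.8 and 18.9 TPM in PRO-seq, while RNA-seq gave 2.71 to 3.92 TPM, a log2 half-life of -1.81 ± 0.075. SOX6, an HMG-box transcription factor gene, had 10.9 and 11.1 TPM in PRO-seq against 2.09 to 2.60 TPM in RNA-seq, a log2 half-life of -1.57 ± 0.084. GABRG3 encodes a GABA-A receptor subunit and had 18.6 and 18 TPM in PRO-seq, while RNA-seq gave 4.37 to 5.01 TPM, a log2 half-life of -1.32 ± 0.061. TTC28 (-1.72 ± 0.075) and DENND1A (-1.59 ± 0.070) stood between them. Each of these 6 lowest has at least 5010 exonic bases, whereas the 6 highest have 664 to 3448.

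TIAM2, an exchange factor of the GTPase RAC, was the single long gene above 10 TPM in PRO-seq and at most 1 TPM in RNA-seq. It had 17.4 and 16.3 TPM in PRO-seq against 0.553, 0.489, 0.768 and 0.287 TPM in RNA-seq, from 49 counts in all. In the set of at least 10 counts its log2 half-life was -4.27 ± 0.136 (adjusted p = 7.8e-26). Its canonical transcript covers 61.7% of the counted span. Of 449 long transcripts with at least 10 PRO-seq counts, 245 (54.6%) had fewer than 10 RNA-seq counts, against 19.4% of 4305 background transcripts. No RNA-seq count was found for 50 long transcripts, whose PRO-seq counts had a median of 94.5 and a maximum of 682.

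Exon length went with half-life among long genes, and span did not. Across the 70 transcripts, Spearman's rho of log2 half-life was -0.44 with exon length and -0.027 with span. Across the 204 with at least 10 counts it was -0.50 and 0.037. In the background, rho with exon length was -0.37 in 2834 and -0.38 in 3469 transcripts. These are descriptions across genes from the same libraries, genes are not replicates, exon length is itself the denominator of the RNA-seq level, and span is that of the PRO-seq level.

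**Figure D4:**
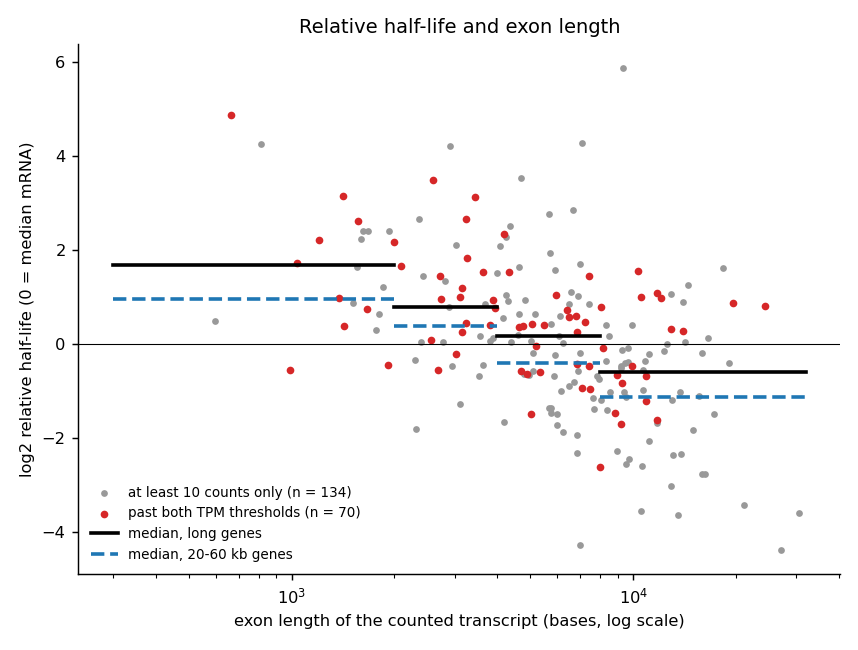
Log2 relative half-life (y axis, 0 is the median mRNA) against exon length (x axis, bases, log scale) of the 204 long transcripts with at least 10 counts in each assay. Transcripts with fewer counts are not drawn and do not enter the medians. Solid lines are medians of the long transcripts and dashed lines those of the 20 to 60 kb background in 4 bins of exon length; in each bin the solid line lies above the dashed line.

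Since long genes have long exons in total, both groups were set side by side in bins of exon length, a split chosen after the values were seen. Past the thresholds, transcripts with up to 2000 exonic bases had a median log2 half-life of 1.62 (11 long) and 0.86 (631 background). At 2000 to 4000 bases the medians were 0.87 (18) and 0.44 (1181). At 4000 to 8000 bases they were 0.27 (22) and -0.34 (876), and above 8000 bases -0.19 (19) and -1.03 (146). The long genes were higher by 0.436 to 0.834 in the 4 bins, and in 8 of 8 library pairings in each. With at least 10 counts the difference was 0.405 to 0.728 in the 4 bins, again above 0 in 8 of 8 pairings in each. In the bin above 8000 bases the pairings gave 0.164 to 0.482, all below the 0.519 from summed counts. With at least 1 count it was 0.767 in the shortest bin and turned to -0.446, -0.66 and -0.756 in the other bins, where 4, 5 and 1 of 8 pairings were above 0. The pairings ranged there from -0.077 to 0.327, from -0.326 to 0.274 and from -0.551 to 0.018. No single pairing was as low as the value from summed counts. A pairing holds only transcripts with a count in both of its libraries, so pairings and summed counts need not cover the same transcripts. Bins with 11, 18 and 19 long transcripts are thinly filled. The pairings reuse the same libraries and do not cover the spread between the genes of a bin. Of 449 long transcripts with at least 10 PRO-seq counts, the 10-count filter left out 54.6% for low RNA-seq counts. In the background it left out 19.4% of 4305. RNA-seq is the numerator of the ratio, and the part of this filter in the differences was not tested.

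Of the 15 role lists, that of RNA-binding and translation factors had the highest median PRO-seq level. A gene may stand on several lists. The counts of list members called with at least 10 counts stand beside 38.5% above and 48.5% below over all transcripts tested, and those past the TPM thresholds beside 40.0% and 50.4%. The list of RNA-binding and translation factors has 10 members and a median of 19.4 TPM, against 0.596 TPM over all long genes. Of its members, 6 passed the thresholds, and those 6 (SND1, RSRC1, CDKAL1, CELF2, MSI2 and FARS2) were all above the median mRNA, with a median log2 half-life of 1.54. CDKAL1, a tRNA-modifying enzyme gene of 697948 bp, had 25.6 and 24.2 TPM in PRO-seq, 51.2 to 55.0 TPM in RNA-seq and a log2 half-life of 1.73 ± 0.049. MSI2, an RNA-binding regulator of translation, had 37.4 and 38.1 TPM in PRO-seq, 35.2 to 39.6 TPM in RNA-seq and a log2 half-life of 0.62 ± 0.046. The other 4 members, RBFOX1, RBFOX3, ADARB2 and RBMS3, had at most 0.552 TPM in PRO-seq, and none exceeded 0.0805 TPM in RNA-seq. These 4 and CELF2 and FARS2 are named after their values were seen.

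Metabolic enzymes, transporters and glycosylation genes formed a list of 30, of which 14 had at least 10 counts in each assay. Of these 14, 10 were above the median mRNA and 1 (FHIT) was below, beside 38.5% and 48.5% over all transcripts tested. ADK, adenosine kinase, had 29.7 and 28.2 TPM in PRO-seq, 74.1 to 82.1 TPM in RNA-seq and a log2 half-life of 2.07 ± 0.052. IMMP2L, a subunit of the mitochondrial inner membrane peptidase, has 1205 exonic bases in 899464 bp. It had 29.2 and 28.9 TPM in PRO-seq, 74.0 to 88.9 TPM in RNA-seq and a log2 half-life of 2.10 ± 0.056. SLC39A11, a zinc transporter gene, had a log2 half-life of 0.86 ± 0.054.

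Of 14 membrane traffic genes, 14 had at least 10 PRO-seq counts and 9 were above 10 TPM in PRO-seq, a level that 15.6% of all long transcripts and 55.6% of the background passed. Of these 9, 5 were above and 4 below the median mRNA. LRBA, a vesicle trafficking protein gene with 58 exons and 10353 exonic bases, had 36.6 and 35.9 TPM in PRO-seq against 61.0 to 65.5 TPM in RNA-seq, a log2 half-life of 1.45 ± 0.037. SBF2, a myotubularin-related gene, had 10.0 and 10.6 TPM in PRO-seq, while RNA-seq gave 2.87 to 3.60 TPM, a log2 half-life of -1.05 ± 0.085.

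**Figure D5:**
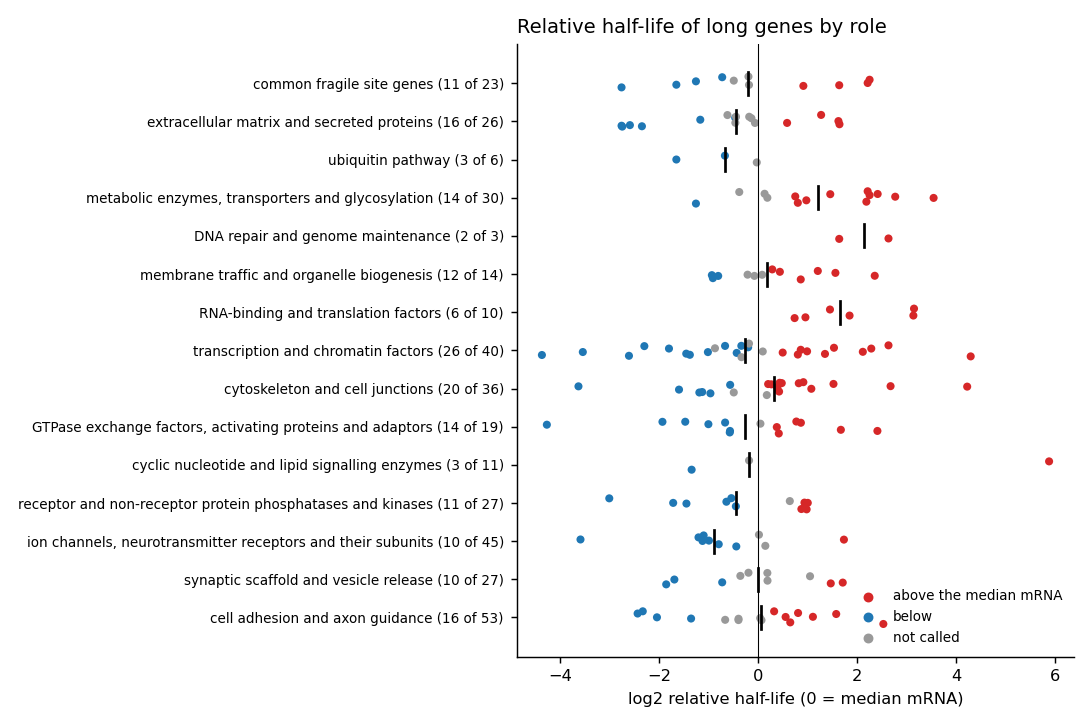
Log2 relative half-life (x axis, 0 is the median mRNA) of long genes with at least 10 counts in each assay, by role. Each point is 1 transcript, red above the median mRNA, blue below and grey not called; black bars are medians, and labels give the members plotted of all members. The 6 RNA-binding and translation genes plotted are all above 0.

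The lists of neuronal function held many genes with few RNA-seq counts. Of 53 adhesion and axon guidance genes, 53 had at least 10 PRO-seq counts, 16 had at least 10 RNA-seq counts and 3 were past both thresholds. Those 3 were NCAM2, a neural adhesion molecule, RELN, a secreted guide of neuronal migration, and TENM1, a teneurin. NCAM2 had 23.5 and 22.8 TPM in PRO-seq, 23.0 to 24.6 TPM in RNA-seq and a log2 half-life of 0.69 ± 0.047. RELN had 16.1 and 15.7 TPM in PRO-seq, 18.4 to 22.2 TPM in RNA-seq and a log2 half-life of 0.99 ± 0.059. TENM1 had 0.21 ± 0.057 (adjusted p = 0.0014), a call lost with DESeq2 (adjusted p = 0.27).

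Of 45 transcripts of ion channel and neurotransmitter receptor genes, 10 had at least 10 counts in each assay, and 7 of these 10 were below the median mRNA. The share below was 48.5% over all transcripts tested, 43.0% over protein-coding ones and 35.8% over long ones. FGF13, which regulates sodium channels, was the 1 above, with 25.4 and 24.9 TPM in PRO-seq, 46.9 to 53.2 TPM in RNA-seq and a log2 half-life of 1.62 ± 0.069, and its canonical transcript covers 16.9% of the counted span. KCNQ5, a potassium channel gene, had 7.14 and 6.71 TPM in PRO-seq, 2.08 to 2.59 TPM in RNA-seq and a log2 half-life of -0.80 ± 0.105 with at least 10 counts. Among 27 synaptic scaffold and vesicle release genes, 10 had at least 10 counts in each assay, with 2 above and 3 below. MAGI1, a junction scaffold gene, had a log2 half-life of 1.35 ± 0.051, and other counted transcripts on its strand overlap 11.9% of its span.

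The counts of signalling and nuclear genes with at least 10 counts in each assay stand beside 38.5% above and 48.5% below over all transcripts tested. Of 27 kinases and phosphatases, 11 had at least 10 counts in each assay, with 4 above and 6 below. TNIK, a kinase that acts in Wnt signalling, had 45.4 and 45 TPM in PRO-seq against 18.7 to 20.4 TPM in RNA-seq, a log2 half-life of -0.57 ± 0.043. PRKCA, protein kinase C alpha, had 36.8 and 36.0 TPM in PRO-seq, while RNA-seq gave 12.6 to 14.9 TPM, a log2 half-life of -0.76 ± 0.051. Of 40 transcripts of transcription and chromatin factor genes, 26 had at least 10 counts in each assay, with 10 above and 12 below. Of 6 ubiquitin pathway genes, 3 had, with 2 below. Of 11 transcripts of cyclic nucleotide and lipid signalling genes, 3 had, with 1 above and 1 below. Of 3 DNA repair and genome maintenance genes, SMYD3 and RAD51B had, and both were above.

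Of 19 GTPase exchange factors, activating proteins and adaptors, 14 had at least 10 counts in each assay, with 6 above and 7 below. ARHGAP6, which acts on RHOA, had 49.7 TPM from summed counts in PRO-seq against 18.7 to 21.2 TPM in RNA-seq, a log2 half-life of -0.69 ± 0.048. AGAP1, an ARF-directed activating protein gene, had a log2 half-life of -0.78 ± 0.050. Of 36 cytoskeleton and junction genes, 20 had at least 10 counts in each assay, with 12 above and 6 below. Of 26 genes of extracellular matrix and secreted proteins, 16 did, with 4 above and 6 below. On none of the role lists were 113 long transcripts, 45 of them fitted with at least 10 counts, with 24 above and 15 below.

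Genes of common fragile sites had a median PRO-seq level of 0.571 TPM, close to the 0.596 TPM of all long genes. Of 23, all had at least 10 PRO-seq counts, 11 had at least 10 RNA-seq counts, and IMMP2L alone was past the TPM thresholds. Of the 11, 4 were above the median mRNA (IMMP2L, WWOX, RAD51B and DMD) and 4 below, among them FHIT, DLG2 and LRP1B, named after their values were seen. FHIT, a nucleotide hydrolase gene of 1504124 bp, had 7.31 and 7.34 TPM in PRO-seq, while RNA-seq gave 2.48, 1.49, 1.72 and 1.5 TPM, a log2 half-life of -1.26 ± 0.146 (adjusted p = 7.3e-10). The calls of DLG2 and LRP1B were lost with DESeq2 (adjusted p = 0.40 and 0.093).

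Among the 5 longest transcripts with at least 10 counts in each assay, 2 were above the median mRNA and 3 below. Over all transcripts tested in that set, 38.5% were above and 48.5% below. DMD, dystrophin (ENSG00000198947, GRCh37 chrX:31137339-33229666, 79 exons), had 5.92 and 5.85 TPM in PRO-seq from 3199 and 3223 counts. RNA-seq gave 6.6, 7.14, 5.53 and 6.77 TPM, a log2 half-life of 0.91 ± 0.062 (adjusted p = 5.9e-16). CSMD1, a membrane protein gene with complement control repeats and 70 exons, had 3.06 and 3.18 TPM in PRO-seq, while RNA-seq gave 4.33, 4.78, 4.33 and 4.35 TPM, a log2 half-life of 1.27 ± 0.067. The RNA-seq values of DMD and CSMD1 rest on 1255 and 877 counts.

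DLG2, a synaptic scaffold gene and at 2172173 bp the longest of the 5, had 0.818 and 0.989 TPM in PRO-seq against 0.291 to 0.433 TPM in RNA-seq, a log2 half-life of -0.73 ± 0.239 from 35 RNA-seq counts. EYS, a photoreceptor matrix gene, had 0.983 and 1.14 TPM in PRO-seq and 15 RNA-seq counts, a log2 half-life of -2.60 ± 0.281. LRP1B, a lipoprotein receptor gene, had 0.471 and 0.597 TPM in PRO-seq and 10 RNA-seq counts, with none in replicates 3 and 4, a log2 half-life of -2.76 ± 0.385. The depth of these 3 genes gives wide errors in RNA-seq.

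Several long genes encode partners of shorter genes, and their values are given side by side without a test of the difference. EXOC4 and EXOC6B encode subunits of the exocyst, a vesicle tether. EXOC4 spans 812681 bp (GRCh37 chr7:132937834-133750514) and had 22.3 and 21.7 TPM in PRO-seq, while RNA-seq gave 64.9, 67.0, 68.8 and 67.3 TPM, a log2 half-life of 2.24 ± 0.043. EXOC1, with a span of 51439 bp, had 25.1 and 23.6 TPM in PRO-seq, a mean of 63.2 TPM in RNA-seq and a log2 half-life of 2.02 ± 0.068. The other shorter subunits varied, from EXOC7 (23588 bp) at 2.42 ± 0.134 through EXOC6 (1.70 ± 0.050), EXOC2 (1.16 ± 0.055), EXOC8 (0.40 ± 0.165) and EXOC5 (0.11 ± 0.055, not called) to EXOC3 (28705 bp) at -0.24 ± 0.086. The calls of EXOC8 and EXOC3 were lost with DESeq2 (adjusted p = 0.069 and 0.1). They were also lost in edgeR with replicates 1 and 2 and a replicate block (adjusted p = 0.051 and 0.064). EXOC6B (650050 bp) had 5.40 and 5.59 TPM in PRO-seq, 2.61 to 3.01 TPM in RNA-seq and a log2 half-life of -0.22 ± 0.106 with at least 10 counts (adjusted p = 0.057). Without RNA-seq replicate 2 it was -0.30 (adjusted p = 0.022) and without replicate 3 it was -0.26 (adjusted p = 0.040).

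PCCA and PCCB encode the subunits of propionyl-CoA carboxylase. PCCA (441418 bp) had 9.12 and 8.96 TPM in PRO-seq against 13.6 to 15.8 TPM in RNA-seq, and PCCB (87538 bp) had 25.3 and 26.0 TPM and a mean of 40.6 TPM. The log2 half-lives with at least 10 counts were 1.46 ± 0.086 and 1.42 ± 0.060, so that the levels differed between the partners and the ratios lay within their errors. UTRN, utrophin (567700 bp), had 6.44 and 6.32 TPM in PRO-seq, 7.34 to 8.42 TPM in RNA-seq and a log2 half-life of 1.07 ± 0.065, beside 0.91 ± 0.062 for its paralog DMD. Of 12 genes of the dystrophin and utrophin complex, 6 had at least 10 counts in each assay, with 5 above the median mRNA and DTNA (0.86 ± 0.590, adjusted p = 0.17) not called. Over all transcripts tested with at least 10 counts, 38.5% were above and 48.5% below. The sarcoglycan genes SGCZ and SGCD, both long, had 2 and 0 RNA-seq counts.

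RPTOR, the scaffold of mTOR complex 1 (421531 bp), had 30.5 and 30.7 TPM in PRO-seq, while RNA-seq gave 14.1, 12.8, 14.2 and 14 TPM, a log2 half-life of -0.52 ± 0.053. Its partner MLST8 (4220 bp) had 0.75 ± 0.165, and MTOR itself -0.14 ± 0.040, a call lost with DESeq2 (adjusted p = 0.087). RAD51B, a homologous recombination gene of 910390 bp, had 5.8 and 5.69 TPM in PRO-seq, 9.04 to 12.6 TPM in RNA-seq and a log2 half-life of 1.64 ± 0.122 with at least 10 counts. RAD51C (43010 bp) had 1.72 ± 0.072 in the same set, whereas XRCC3 (17888 bp) had -0.16 ± 0.071 and XRCC2 (31366 bp) -0.68 ± 0.058. The XRCC3 call was lost with DESeq2 (adjusted p = 0.12). Its value was -0.123 without PRO-seq replicate 1 and -0.19 without PRO-seq replicate 2.

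Of the formins of the diaphanous family, DIAPH3 (498346 bp) had 25.8 and 26.9 TPM in PRO-seq against 19.9 to 21.2 TPM in RNA-seq, a log2 half-life of 0.27 ± 0.052. The shorter DIAPH1 (104035 bp) had -0.74 ± 0.041, and DIAPH2 (920156 bp) had 15 RNA-seq counts and was not called. FTO, an RNA demethylase gene (449250 bp), had 10.2 and 9.77 TPM in PRO-seq, 9.97 to 10.9 TPM in RNA-seq and a log2 half-life of 0.80 ± 0.087 with at least 10 counts. GPHN, whose protein gephyrin serves molybdenum cofactor synthesis and inhibitory synapses, had 9.84 and 8.91 TPM in PRO-seq, while RNA-seq gave 5.63 to 7.43 TPM. Its log2 half-life was 0.18 ± 0.097 (adjusted p = 0.074), and without PRO-seq replicate 1 it was 0.28 (adjusted p = 0.014). The alpha catenin gene CTNNA3 (1783673 bp) had 7 RNA-seq counts and CTNNA2 (1463548 bp) 39, with 0.176 to 0.952 TPM. MSI1, the shorter partner of MSI2, had no RNA-seq count.

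Some of the 66 long transcripts above 1 TPM in RNA-seq and at most 10 TPM in PRO-seq, and others with extreme values, are named here after their values were seen. PHACTR1, a regulator of phosphatase and actin, had 3.28 and 2.93 TPM in PRO-seq against 31.8 to 35.9 TPM in RNA-seq, a log2 half-life of 4.22 ± 0.078 with at least 10 counts. OXR1, an oxidation resistance gene, had 4.78 and 4.97 TPM in PRO-seq, while RNA-seq gave 32.3 to 35.7 TPM, with 3.545 ± 0.064, and other counted transcripts overlap 28.4% of its span. The highest value of the 204 was that of 1 transcript of PDE11A, a phosphodiesterase gene, at 5.88 ± 0.111, with 0.371 and 0.313 TPM in PRO-seq against 11.5 to 13 TPM in RNA-seq. FOXP1, a forkhead factor gene, had 4.295 ± 0.124, and 99.3% of its span is overlapped by other counted transcripts on the same strand. ZBTB20, a zinc finger repressor gene, was the lowest at -4.37 ± 0.118, with 6.25 and 6.08 TPM in PRO-seq, while RNA-seq gave 0.148 to 0.225 TPM. The 4 long transcripts with no PRO-seq count were B3GALT1, 1 transcript of NKAIN3, MAD1L1 and ENSG00000285713, and the last 2 are overlapped over nearly their whole span on the same strand. Overlap was measured against transcripts of other genes only, and PDE11A and NKAIN3 each have 2 counted transcripts among the members. Reads that fall on overlapping transcripts can be left uncounted. Whether strand was used in counting is not stated, and the part of overlap in these values was not tested.

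Members just inside the limit of 400000 bp were TNIK (401992 bp), KIAA1328 (402413 bp) and GRIK1 (403087 bp), with 45.2, 6.4 and 3.86 TPM in PRO-seq against 19.6, 5.93 and 1.68 TPM in RNA-seq from summed counts. Just outside were HECW2 (399483 bp), TRHDE (398389 bp) and DTNA (398079 bp), with 1.60, 0.434 and 0.125 TPM in PRO-seq, while RNA-seq gave 0.318, 0.180 and 0.137 TPM.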

How the data were processed

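The authors deposited, for each of the 6 libraries, raw counts per transcript from HTSeq, not normalized. Reads had been trimmed (Cutadapt) and aligned to GRCh38 (HISAT2). Tool versions and use of strand: not given in the sources used here. Rows naming no transcript held 66.5% to 68.6% of RNA-seq records and 86.5% or 88.6% of PRO-seq records and were left out. Spans, exons and classes came from GENCODE 44 lifted to GRCh37, joined by identifier (37339 of 42371 matched), so a length may not equal that used in counting, and printed gene coordinates are GRCh37. TPM was computed from counts summed over replicates, removing 1000 bp from the span for PRO-seq, since 500 bp at each end were not counted per the methods.

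RNA-seq was tested against PRO-seq per transcript with edgeR 4.0.16 (R 4.3.3) by its quasi-likelihood test, with TMM normalization, offsets for length, centring on the median protein-coding transcript and Benjamini-Hochberg adjustment over all transcripts fitted. DESeq2 1.42.0 and summing the close RNA-seq pairs were among the alternatives. The steps were tested on simulated data. Named genes are those with the 8 highest levels in either assay, the 6 highest and 6 lowest half-lives among calls on the same side in both replicate pairs, the 5 longest, the 5 lowest in RNA-seq above 10 TPM in PRO-seq, up to 3 per role, partners of fixed complexes, and 3 on each side of the length limit. Values of a few genes on the lists are not reported here. Members, lists and tests were chosen with earlier results of these data known. Promoters are from RefSeq, and none on chromosome 8 was considered for printing. Intervals and errors cover the spread between libraries only. Use of molecular identifiers was not stated.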

Additional observations from a re-analysis of the deposited data

Results flagged for a closer look

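The RNA-seq levels of the named long genes, their median and their share of library counts were screened for 1 library standing apart from the other 3, by the gap between it and its neighbour as a share of the range (Dixon's test for 4 samples). Of the 71 values, 4 were past its critical value, and chance alone gives about 1 in 20. DLG2 had a ratio of 0.892, with 0.433 TPM in 1 library and 0.291 to 0.306 TPM in the others, from 35 counts in all. CSMD1 had 0.951, with 4.78 TPM in 1 library and 4.33 to 4.35 TPM in the others. RPTOR had 0.851, with 12.8 TPM in 1 library and 14 to 14.2 TPM in the others. SGCZ had a ratio of 1.0, because its 2 counts fell in 1 library, at 0.0700 TPM. The share of library counts on long genes and their median level were not past the critical value.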

How the results depend on the processing

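Past the TPM thresholds, with at least 1 summed count in place of the thresholds, 116 of 402 long transcripts were above the median mRNA and 146 below, and the median difference from the background turned to -0.835. With thresholds of 20 TPM (PRO-seq) and 2 TPM (RNA-seq), 22 of 34 were above and 10 below, with a difference of 0.485. A test against a 2-fold difference called 18 above and 6 below. A span over 300 kb gave 78 above and 49 below of 139 (difference 0.139), and over 500 kb 23 and 14 of 39 (0.129). Members whose canonical transcript also exceeds 400 kb, an alternative chosen after seeing the data, gave a difference of 0.335. With at least 10 counts, the 2-fold test called 46 above and 34 below, a span over 300 kb 154 and 135 of 354, and over 500 kb 49 and 37 of 116. DESeq2 called 43 below, at least 1 count gave 146 below and a difference of -0.835, and without RNA-seq replicates 1, 2, 3 and 4 the difference turned to 0.097, 0.129, 0.1 and 0.064. Why these values change was not tested, apart from the fewer or more transcripts that each setting keeps. Shares over all transcripts at these settings are not given here, so these counts cannot be set against them. With 500 bp removed for PRO-seq the median PRO-seq level was 0.721 TPM. Leaving out 1 library at a time gave 43 to 45 above and 21 to 22 below past the thresholds, with a difference of 0.226 to 0.265, and 89 to 93 above and 59 to 73 below with at least 10 counts, with a difference of -0.078 to 0.129. It gave 71 to 73 long transcripts above 10 TPM in PRO-seq, 70 to 72 past both thresholds, and medians of 0.52 to 0.643 TPM in PRO-seq, while RNA-seq gave 0.0772 to 0.086 TPM.

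With at least 1 count, transcripts lay higher by a median of 0.63, and named genes turned from below to above 0: TNIK 0.063, CUX1 0.311, FBXL17 0.485, SORCS1 0.049, EXOC3 0.388, XRCC3 0.36, RPTOR 0.109, MTOR 0.486, MCEE 0.157, ALKBH4 0.165, ALKBH8 0.624, PLCB1 0.329, EXOC6B 0.3 and GRIK1 0.071. Of 2576 values for 98 named genes, 2410 kept their side and their call, 125 lost the call (78 in the 2-fold test and 14 with DESeq2), 17 gained it and 24 reversed. Same-numbered libraries of the assays did not deviate together (correlation -0.0118 over 9997 transcripts). With 2 PRO-seq libraries and cells of 1 flask, this cannot decide whether the numbers pair them. With replicates 1 and 2 and a replicate block, 43 were above and 22 below of 70 past the thresholds, and 88 and 57 of 177 with at least 10 counts; without the block the same libraries gave 44 and 22, and 87 and 56. Low RNA-seq counts limit the values of most long genes. The paper found greater total intron length to go with longer half-lives, but not after a correction for elongation rate in a subset of genes. That result came mainly from earlier published PRO-seq and poly-A+ RNA-seq data, in a model that also held other gene features. The values here come from the total RNA libraries without such a model. The paper proposes that this association may be an artifact of faster elongation in long introns. No correction for elongation rate was made here, so its part in the values of long genes was not tested.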
